A study of Mus musculus with 12 samples.

Results

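TRAJ45, TRAJ43, TRAJ42, TRAJ40, TRAJ39, TRAJ38, TRAJ37, TRAJ35 and TRAJ34 are 9 joining genes of the T cell receptor alpha locus, grouped because they lie in one stretch in the upper middle of the J cluster. Members were the productive alpha chain (TRA) contigs of called cells whose J gene was one of these 9, with each V gene plus CDR3 nucleotide sequence counted once per library as 1 rearrangement. They made up 2275 of 9383 rearrangements, used 9 of the 43 TRAJ genes found, and were carried by 2404 of 8974 cells with a TRA. TRAJ44 lies inside the interval and is not a member.

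The alpha chain gene is assembled in the thymus by joining 1 of many V genes (TRAV) to 1 of many J genes (TRAJ), with bases trimmed and added at the junction. The first joins tend to link V genes near the J cluster to the most upstream J genes, and later joins on the same chromosome replace them with V genes farther out and J genes farther down. Both chromosomes of a cell rearrange, so a T cell can carry a pair of alpha chains. The J gene encodes the end of the CDR3, the loop of the receptor that contacts the antigen.

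Mammary tumours of Balb/c mice gave the CD45+ immune cells, which were sequenced in droplets with an enrichment for T cell receptor transcripts. CTX, CTX2, CSF1R and Combined were treated libraries, and the course named in the labels was cyclophosphamide, an alkylating drug, with pexidartinib, which blocks the CSF1 receptor, for 3 weeks. PBS2 carried conflicting labels (its receptor record says treated, its expression record untreated) and was left out of the treatment comparison, and PBS1 was labelled untreated. Library names follow the deposited table, and what they stand for is not defined in the labels. CSF1R and PBS1 were matched through the numbers of their expression libraries, CSF1R to the treated group and not to a single record. Which mice a library came from is not stated, so a p-value here reflects variation among libraries, which may be technical.

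Combined held 7040 of the rearrangements (75.0%), CSF1R 857, CTX2 518, CTX 419, PBS2 404 and PBS1 145. Total UMIs per library ranged between 121305 (Combined) and 6807 (PBS1). The median member contig rested on 3 to 6 UMIs (molecules counted by their tags) by library, and 86.0% to 95.3% of member contigs were marked high confidence. Of the 2404 member cells, 2263 also had a productive beta chain (TRB), which marks them as alpha-beta T cells. Gamma, delta or antibody chain contigs in member cells numbered 4. Of 11468 cell barcodes, 50 occurred in 2 libraries, and 0 of these carried the same TRA in both.

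The ends that the 9 genes give to the CDR3 differ in length and letters, and they are shown because the CDR3 lengths reported further on include them. Each sequence is the majority base, read back from the end of the CDR3 nucleotide sequences of all libraries, for as long as at least 50 sequences still matched and 1 base held at least 50% of them. For genes with fewer rearrangements the reading therefore stops earlier. Capitals mark the last 9 bases, which close the loop with a phenylalanine codon or, in TRAJ38, a tryptophan codon.
TRAJ45: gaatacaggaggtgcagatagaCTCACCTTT
TRAJ43: gcaataacaacaatgccCCACGATTT
TRAJ42: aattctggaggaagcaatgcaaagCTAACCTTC
TRAJ40: gttaatacaggaaactacaaaTACGTCTTT
TRAJ39: aataataatgcaggtgccaagCTCACATTC
TRAJ38: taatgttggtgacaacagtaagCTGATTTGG
TRAJ37: ataacaggcaatactagaaaaCTCATCTTT
TRAJ35: gacaggctttgcaagtgcgCTGACATTT
TRAJ34: tcttccaataccgacaaaGTCGTCTTT

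In the RefSeq gene table of GRCm38.p6 these J segments, each a coding exon of the alpha chain, lie on chromosome 14. TRAJ45 is at 54172831 to 54172890 and TRAJ34 at 54184699 to 54184756. The segments between them are at 54174742 to 54174798 (TRAJ43), 54175773 to 54175836 (TRAJ42), 54177921 to 54177981 (TRAJ40), 54179962 to 54180024 (TRAJ39), 54180574 to 54180635 (TRAJ38), 54181518 to 54181577 (TRAJ37) and 54183774 to 54183838 (TRAJ35). That assembly comes from another strain than Balb/c.

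Members were used in a similar part of the rearrangements of each library, and varied more by cells. Their share of rearrangements was 25.5% in CTX, 20.5% in CTX2, 22.8% in CSF1R, 24.6% in Combined, 25% in PBS2 and 24.8% in PBS1. The mean was 23.9% ± 1.91 (SD, n = 6). Of cells with a TRA, 31.3% carried a member chain in CTX, 19.6% in CTX2, 24.1% in CSF1R, 27.4% in Combined, 31.4% in PBS2 and 35.6% in PBS1. The 9 TRAJ genes upstream of the members held 31.1% ± 2.09 of rearrangements and the 24 downstream 44.1% ± 2.80 (SD, n = 6 each). Treated libraries averaged 23.3% ± 2.23 (SD, n = 4), against 24.8% in PBS1 (exact 95% interval 18.0 to 32.7), and PBS1 lay inside the treated range. The difference, treated minus untreated, was -1.50 percentage points (p = 0.6 by an exact permutation test, two-sided, where 4 libraries against 1 cannot give less than 0.2). Weighting each rearrangement by its cells, so that a cell counts once for each of its TRA chains, gave a difference of -9.40 points. The weighted value depends on clone size: the largest member rearrangement held 23 cells in PBS1, with 188 cells with a TRA. In CTX2 it held 48, with 1044 such cells. The weighted measure is not the share of cells given above.

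Within the interval, 7 genes were used often and 2 rarely. TRAJ45, the most upstream member, led with a mean of 3.89% ± 0.293 (SD, n = 6). Its share was 4.30% in CTX, 3.67% in CTX2, 3.73% in CSF1R, 3.54% in Combined, 3.96% in PBS2 and 4.14% in PBS1. It ranked 5 of 43 TRAJ genes by mean share, and PBS1 lay within its treated range.

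TRAJ37 followed with 3.88% ± 1.85 (SD, n = 6), a mean raised by PBS1. Its share was 3.34% in CTX, 2.51% in CTX2, 3.50% in CSF1R, 3.14% in Combined, 3.22% in PBS2 and 7.59% in PBS1. The PBS1 value rested on 11 of 145 rearrangements (exact 95% interval 3.85 to 13.2) and stood above all 5 other libraries. Of these 11, 2 ended in another reading frame of the J gene and 1 was a second TRAV name for the same CDR3. Without both kinds the PBS1 value was 5.71% (8 of 140, 2.5 to 10.9) and the other libraries spanned 2.23% to 3.30%.

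TRAJ40 averaged 3.44% ± 1.10 (SD, n = 6) and varied most among the treated libraries. Its share was 4.06% in CTX, 2.12% in CTX2, 3.62% in CSF1R, 4.09% in Combined, 4.70% in PBS2 and 2.07% in PBS1. CTX2 and PBS1 were low and PBS2 was high. The 4 members next in order were close together, TRAJ42 with 2.90% ± 0.597, TRAJ34 with 2.83% ± 0.270, TRAJ43 with 2.79% ± 0.384 and TRAJ39 with 2.70% ± 0.813 (SD, n = 6 each). TRAJ42 spanned 2.45% to 4.06%, TRAJ34 2.39% to 3.22%, TRAJ43 2.39% to 3.45% and TRAJ39 1.38% to 3.82%. Up to here each gene differed from the next in order by less than the spread between libraries.

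TRAJ38 and TRAJ35 stood below all of these. TRAJ38 averaged 0.728% ± 0.279 (SD, n = 6) over 86 rearrangements, from 0.233% in CSF1R to 1.02% in Combined. TRAJ35 averaged 0.700% ± 0.461 (SD, n = 6) over 105 rearrangements, with 1.24% in Combined, 1.17% in CSF1R, 0.743% in PBS2, 0.579% in CTX2, 0.477% in CTX and 0 of 145 in PBS1. A count of 0 in PBS1 allows a share of up to 2.07%. The highest TRAJ38 value, 1.02%, lay under the lowest TRAJ39 value, 1.38%.

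**Figure D1:**
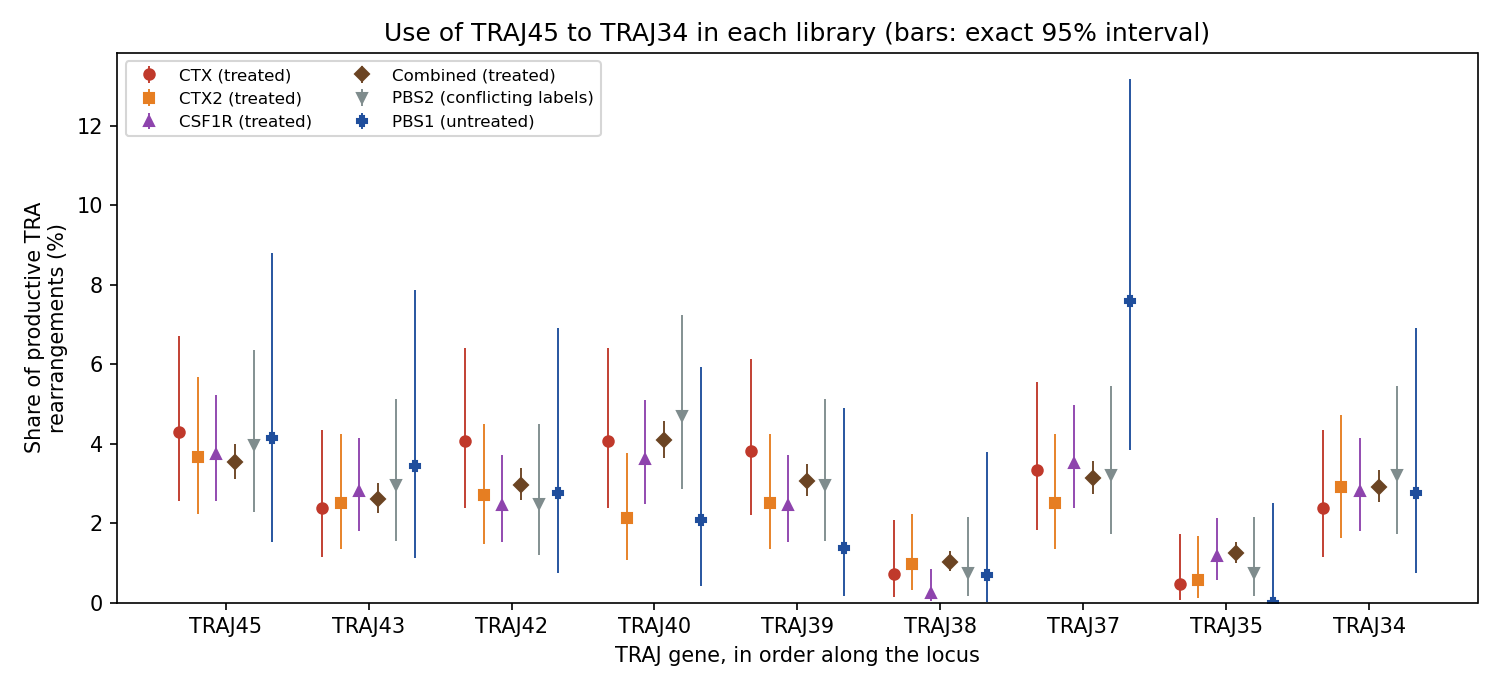
Share of productive TRA rearrangements (percent, vertical axis) that used each member (horizontal axis), with 1 point per library and exact 95% intervals that cover counting error only. TRAJ38 and TRAJ35 lie at 1.24% or less in every library, and the PBS1 point of TRAJ37, 7.59%, lies above those of the other libraries.

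PBS1 lay outside the range of the treated libraries for 5 of 9 members, and for 30 of all 43 TRAJ genes, a background of 69.8%. Treated libraries lay below PBS1 for 2 members, TRAJ43 (2.39% to 2.80% in treated libraries, against 3.45% in PBS1) and TRAJ37, where 30.2% of all TRAJ genes did so. They lay above PBS1 for 3 members, TRAJ40, TRAJ39 and TRAJ35, each with 3 or fewer PBS1 rearrangements, where 39.5% of all did so. With 145 rearrangements in the untreated library, and most TRAJ genes outside the range, these positions say nothing particular about the members.

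A list of 5 V genes near the J cluster was joined less often to members than to upstream J genes in every library, a difference that did not pass correction. The list was TRAV17, TRAV18, TRAV19, TRAV20 and TRAV21-DV12, single genes toward the J-proximal end of the V cluster. TRAV20 was not found in any rearrangement, and TRAV18 in 1 member and 3 other rearrangements. TRAV23, with 3 member and 2 other rearrangements, lies nearer the J cluster and was not on the list. The listed genes were joined to 0% of member rearrangements in CTX, 3.77% in CTX2, 4.62% in CSF1R, 3.29% in Combined, 4.95% in PBS2 and 0% in PBS1. For upstream TRAJ the shares were 10.2% in CTX, 6.75% in CTX2, 6.99% in CSF1R, 9.44% in Combined, 6.98% in PBS2 and 5.13% in PBS1. Members were lower in 6 of 6 libraries, with means of 2.77% ± 2.23 for members and 7.58% ± 1.89 for upstream TRAJ (SD, n = 6 each).

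The difference was -4.81 percentage points (SD 3.11, n = 6). The two-sided exact sign-flip permutation p was 0.03125, the smallest that 6 libraries can give, and the adjusted p over 7 such comparisons was 0.109, and the threshold was 0.05. With TRAV23 added the difference was -4.80 points (adjusted exact permutation p = 0.109, n = 6). Over all libraries, 75 of 2275 member rearrangements used one of the 5 listed V genes, against 266 of 2974 upstream and 62 of 3993 downstream. The difference from downstream TRAJ was 1.59 points (SD 1.83, exact permutation p = 0.125, adjusted 0.219, n = 6), with members higher in 4 libraries, lower in CTX and equal at 0 in PBS1.

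By position, the V partners lay on average 964 kb from TRAJ45 for members, 875 kb for upstream and 989 kb for downstream TRAJ, all libraries pooled. Over libraries the difference of members from upstream TRAJ was -98.3 kb, with the sign turned so that negative means farther from TRAJ45 (exact permutation p = 0.03125, adjusted 0.109, n = 6).

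Among single members the pooled share of these V genes had no order along the interval. It was 3.53% for TRAJ45, 2.02% for TRAJ43, 3.65% for TRAJ42, 4.34% for TRAJ40, 2.86% for TRAJ39, 3.31% for TRAJ37, 4.76% for TRAJ35 and 3.32% for TRAJ34. TRAJ38 had 0 of 86, which allows a share of up to 3.49%. The exact 95% intervals of all 9 members overlapped. The nearest TRAJ gene upstream, TRAJ47, had 4.26% (1.58 to 9.03) and the nearest downstream, TRAJ33, 1.83% (0.379 to 5.25), intervals that overlapped those of all 9 members. TRAV21-DV12 made up 32 of the 75 member joins, TRAV17 29, TRAV19 13 and TRAV18 1.

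**Figure D2:**
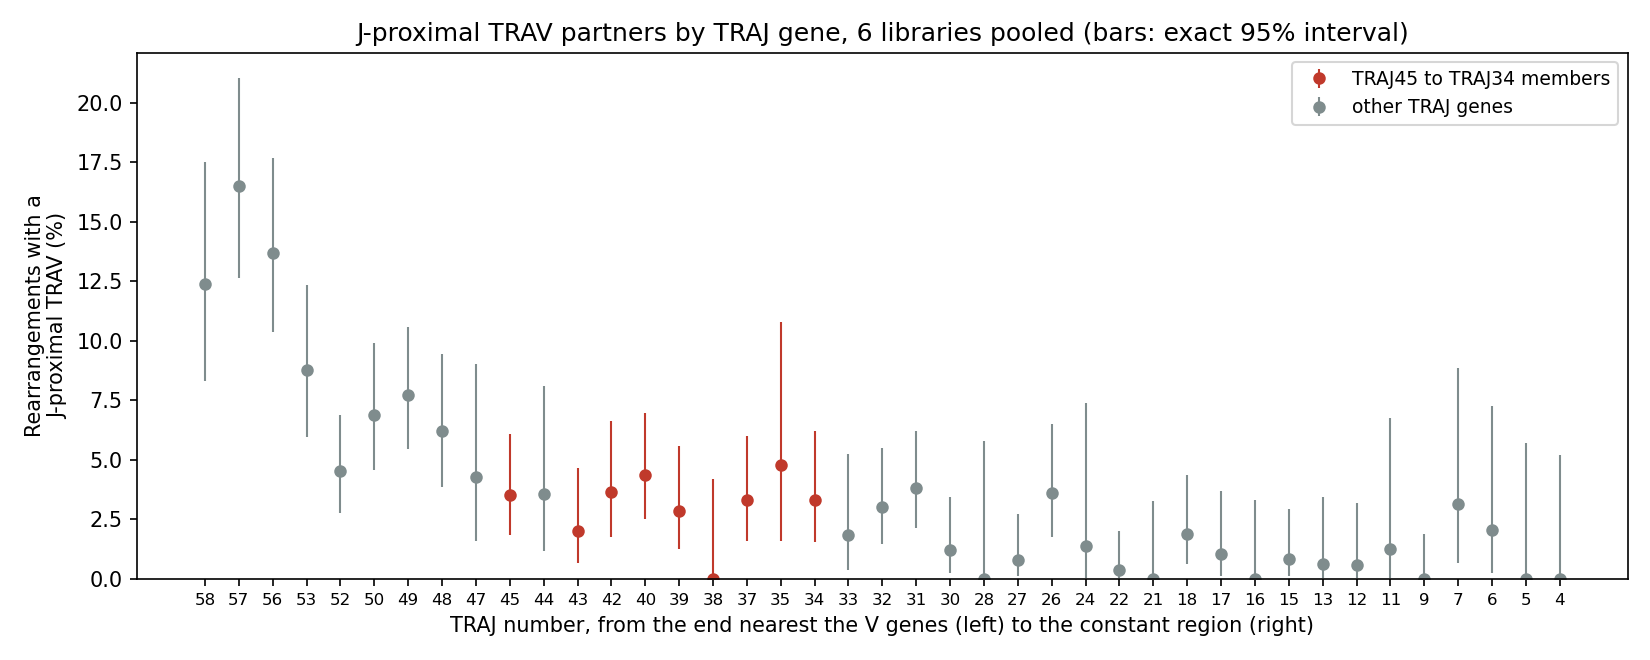
Percent of rearrangements of each TRAJ gene with at least 50 rearrangements that used a J-proximal TRAV (vertical axis), by TRAJ number along the locus (horizontal axis), 6 libraries pooled, with exact 95% intervals. The members, in red, run from 0% for TRAJ38 to 4.76% for TRAJ35, and TRAJ57 reaches 16.5%.

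By mean share over the 6 libraries, the V genes most often joined to members were TRAV12D-2, TRAV16N, TRAV9D-1, TRAV3-3 and TRAV6-6. By count, where Combined weighs most, TRAV9D-1 (114) and TRAV6-6 (103) came first, and TRAV3-3 (51) stood behind TRAV5N-4 (91) and others. TRAV12D-2 made up 6.12% ± 2.03 of member rearrangements and 3.56% ± 1.01 of the others, higher with members in 5 of 6 libraries (SD, n = 6). TRAV3-3 made up 4.27% ± 1.93 and 3.05% ± 1.40, higher with members in 6 of 6. TRAV9D-1 stood at 4.75% ± 2.61 with members and 3.54% ± 1.92 with other TRAJ, higher with members in 5 of 6. TRAV16N stood at 5.85% ± 2.81 and 5.33% ± 1.18, but was higher with members in only 2 of 6. Its member share ranged from 3.70% to 11.1% by library. TRAV6-6 was lower with members, at 3.62% ± 1.82 against 6.26% ± 0.737 with other TRAJ, and higher with members in 0 of 6 libraries. These 5 were chosen by their share, and their differences were not tested. In mice much of the TRAV cluster is duplicated, with copies that are nearly alike, so single TRAV names are uncertain: 57 of 2216 member J gene and CDR3 combinations appeared under more than 1 TRAV name in the same library.

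No single V gene made up more than 8.12% of any member's rearrangements. TRAV9D-1 led for TRAJ34 (22 of 271), TRAJ40 (21 of 369) and TRAJ37 (17 of 302). TRAV5N-4 led for TRAJ45 (24 of 340), TRAV12D-2 for TRAJ39 (18 of 280), TRAV16N for TRAJ42 (15 of 274) and TRAV14D-3-DV8 for TRAJ43 (14 of 248). TRAV7-3 led for TRAJ35 (8 of 105) and TRAV4-3 for TRAJ38 (6 of 86). The V gene use of the members together was most like that of TRAJ15, TRAJ30 and TRAJ32. The overlap of V gene shares, with 6 libraries weighted equally, was 68.8%, 67.0% and 65.6%, among 25 TRAJ genes with at least 100 rearrangements.

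CDR3 length differed between members. As a group the members averaged 40.9 nt ± 0.551, against 41.1 nt ± 0.254 for other TRAJ (SD, n = 6 each), a difference of -0.156 nt (SD 0.471, exact sign-flip permutation p = 0.438, adjusted 0.510, n = 6). The libraries ranged from -0.653 nt in PBS2 to 0.424 nt in CTX. The group mean covered members on both sides of it. TRAJ45 averaged 42.9 nt ± 1.14, TRAJ38 42.8 ± 1.60, TRAJ42 42.7 ± 1.15 and TRAJ37 41.9 ± 0.897 (SD, n = 6 each). TRAJ39 averaged 40.6 nt ± 0.424 and TRAJ40 40.3 nt ± 0.847 (SD, n = 6 each), and TRAJ35 40.7 nt ± 1.61 (SD, n = 5). TRAJ34 averaged 38.3 nt ± 1.73 and TRAJ43 37.4 nt ± 0.618 (SD, n = 6 each).

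Set against all other TRAJ in the same library, the CDR3 was longer with 4 members and shorter with 2. TRAJ45 was longer by 1.98 nt (SD 0.941), TRAJ38 by 1.81 nt (SD 1.72), TRAJ42 by 1.78 nt (SD 1.03) and TRAJ37 by 0.903 nt (SD 0.720), each in 6 of 6 libraries. TRAJ43 differed by -3.75 nt (SD 0.512) and TRAJ34 by -2.80 nt (SD 1.92), also in 6 of 6. For each of these 6 the exact sign-flip permutation p was 0.03125, adjusted to 0.0475 over 41 TRAJ genes. Of all 41 genes 27 passed, a background of 65.9%, with 34.1% longer and 31.7% shorter, so passing was common. TRAJ40 (-0.705 nt), TRAJ39 (-0.414 nt) and TRAJ35 (-0.229 nt, 5 libraries) did not pass.

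These calls are fragile, because 6 libraries can give an adjusted p under 0.05 only where at least 26 of the 41 genes reach the smallest p. With at least 2 UMIs per contig, or without possible doublets, 0 of 41 genes passed by the same exact test. With any library left out the smallest p is 0.0625 and none can pass.

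The part of the CDR3 that matched the J end carried most of the difference between members. In rearrangements in the usual reading frame this run averaged 29.4 nt ± 0.562 for TRAJ42, 29.1 ± 1.44 for TRAJ38, 27.6 ± 0.346 for TRAJ37, 27.6 ± 1.12 for TRAJ45, 23.7 ± 1.19 for TRAJ34 and 23.4 ± 0.240 for TRAJ43 (SD, n = 6 each). The mean run thus spanned 6.0 nt over the 9 members, while the mean of the remaining bases spanned 1.95 nt. The remaining bases ran from 13.4 nt ± 1.18 for TRAJ42 to 15.3 nt ± 1.52 for TRAJ45 (SD, n = 6 each). The whole J end as read was matched in 47.7% of 86 TRAJ38 and in 10.8% of 369 TRAJ40 rearrangements. Because reading went on only while at least 50 sequences matched, this share mostly follows the number of rearrangements. It does not measure trimming.

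**Figure D3:**
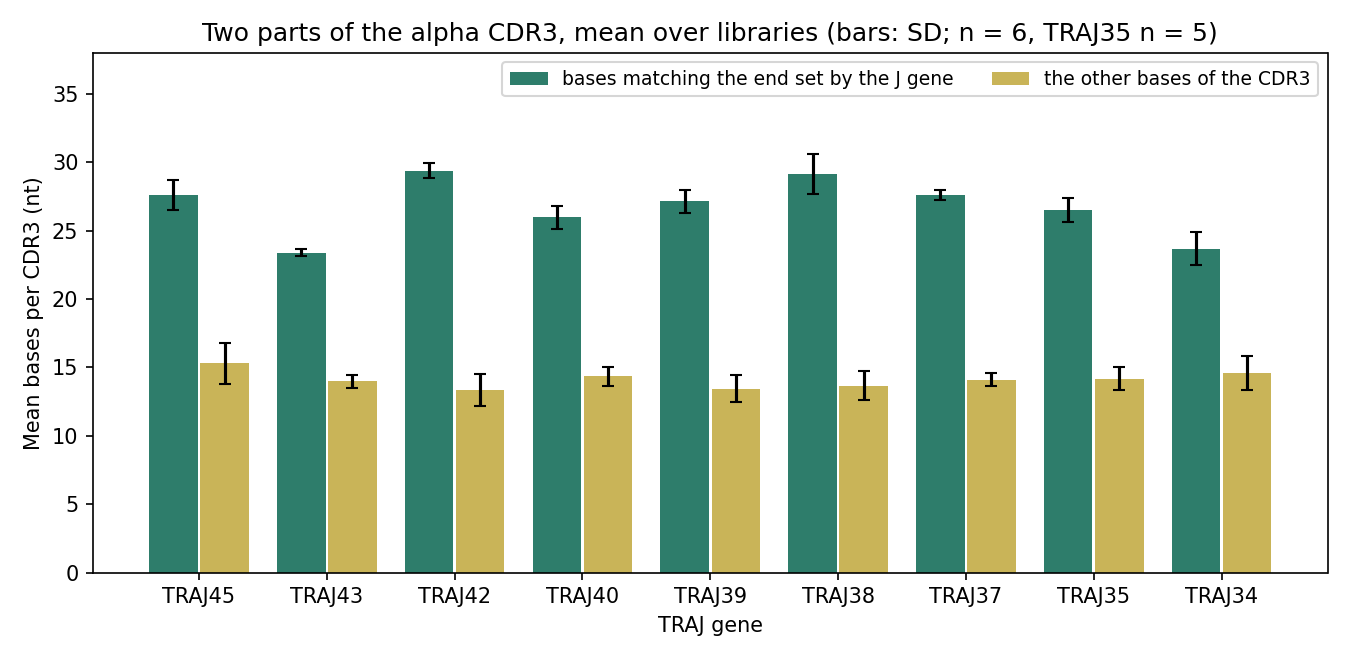
Mean number of CDR3 bases (nt, vertical axis) that match the J end, left bar, and of all other CDR3 bases, right bar, for each member (horizontal axis), with the SD over 6 libraries (5 for TRAJ35). The J part runs from 23.4 nt in TRAJ43 to 29.4 nt in TRAJ42, and the other bases from 13.4 to 15.3 nt.

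Between the V and J parts, 3.11 nt ± 0.301 per member rearrangement matched neither end, against 3.38 nt ± 0.107 for other TRAJ (SD, n = 6 each). None were left over in 14.6% ± 4.88 of member and 16.5% ± 2.45 of other rearrangements (SD, n = 6 each). These junction values were not tested.

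TRAJ37 was the only member with CDR3 sequences in another reading frame of its J gene. They numbered 16 of 302 rearrangements marked productive (5.30%), and 0 in each of the other 8 members. Elsewhere in the locus 8 more TRAJ genes had such sequences, 75 of them in TRAJ44. The 16 rested on a median of 1 UMI and 7 were marked high confidence, against a median of 3 UMIs and 262 of 286 for TRAJ37 in the usual frame. Of the 16, 15 were in cells that also had a TRB. The next lines show 1 of each kind from Combined, both with TRAV17 and 5 UMIs, with the stretch that matches the TRAJ37 end given above in capitals. In the other frame the CDR3 goes on 1 base past that end, and this base is in lower case.
TRAJ37, other frame: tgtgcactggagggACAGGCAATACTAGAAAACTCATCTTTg
TRAJ37, usual frame: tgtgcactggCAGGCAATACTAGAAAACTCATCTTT

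The share of members was set beside that among nonproductive rearrangements, which make no protein. Members made up 25.5% of productive and 5.13% of nonproductive rearrangements in CTX, 20.5% and 15.2% in CTX2, 22.8% and 21.6% in CSF1R, 24.6% and 24.7% in Combined, 25% and 16.7% in PBS2, and 24.8% and 10% in PBS1. Outside Combined, with 324, the nonproductive sets were small, 20 to 51 per library. The mean difference was 8.31 points (SD 8.0, exact sign-flip permutation p = 0.0625, adjusted 0.146, n = 6), higher among productive ones in 5 of 6 libraries. In Combined, with by far the most rearrangements, it was -0.117 points. The exact permutation p reached 0.03125 with each J gene and CDR3 counted once or without CDR3 in another frame, with adjusted p of 0.109 and 0.0729.

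By gene, TRAJ45 had 340 productive and 4 nonproductive rearrangements. Its share was higher among productive ones by 3.31 points (SD 0.938), in 6 of 6 libraries, and the exact permutation p was 0.03125, or 0.160 after adjustment over 41 genes. It was the only member at an unadjusted p under 0.05 in that direction, against 7 of 41 genes (17.1%). In the other direction 1 of 41 genes (2.44%) and 0 members did so, and 0 of 41 genes passed after adjustment. TRAJ38 had 86 productive and 27 nonproductive rearrangements, a difference of -2.34 points (SD 2.58, exact permutation p = 0.125, n = 6).

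Cells with a pair of productive alpha chains were examined for the J gene of the second chain. Taking each chain of a pair in turn as the first, the other chain used a member after a member first chain in 48.9% of cases in CTX, 24.4% in CTX2, 50% in CSF1R, 34.9% in Combined, 50% in PBS2 and 61.5% in PBS1. After any other first chain it did so in 22.8% in CTX, 23.3% in CTX2, 14.1% in CSF1R, 22.4% in Combined, 15.9% in PBS2 and 21.7% in PBS1. The means were 44.9% ± 13.2 and 20% ± 3.97 (SD, n = 6 each). The difference was 24.9 points (SD 15.2, exact sign-flip permutation p = 0.03125, adjusted 0.109, n = 6), higher in 6 of 6 libraries, and did not pass correction. This mean weights all libraries equally. Combined held 1064 of the 1409 pairs and differed by 12.4 points, and all pairs pooled differed by 15.7 points. The value after a member first chain rested on 8 of 13 chains in PBS1 and on 14 of 28 in PBS2.

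A part of these pairs was not a pair of different rearrangements. Of 1409 pairs, 60 had the same CDR3 under different TRAV names and 147 had the same J gene. Without pairs of the same CDR3 the difference was 18.7 points (SD 14.4, exact permutation p = 0.0625, n = 6), higher in 5 of 6. Without pairs of the same J gene it was 15.4 points (SD 13.6, exact permutation p = 0.0938, n = 6), with 28.6 points in CSF1R, 4.48 in Combined and -4.69 in CTX2. With high-confidence contigs alone it was 13.6 points. In CTX2 and Combined, the pair of libraries named JR in the labels, the mean difference was 6.76 points, against 34 points in the other 4. Free receptor RNA and doublets were not tested as sources of second chains beyond leaving out possible doublets, which gave 26.3 points.

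With pairs of the same J gene left out and TRAJ44 counted in the interval, chains inside the interval had a partner inside it in 40.1% ± 10.8 of cases, downstream in 41.3% ± 6.03 and upstream in 18.6% ± 8.70 (SD, n = 6 each). Upstream chains had a partner in the interval in 20.1% ± 6.03 and upstream in 66.9% ± 12.1. Downstream chains had one in the interval in 25.9% ± 7.20 and downstream in 66.4% ± 6.35 (SD, n = 6 each). By member, the median partner lay between TRAJ31 (for TRAJ38, 26 chains) and TRAJ40 (for TRAJ45, TRAJ43 and TRAJ34).

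**Figure D4:**
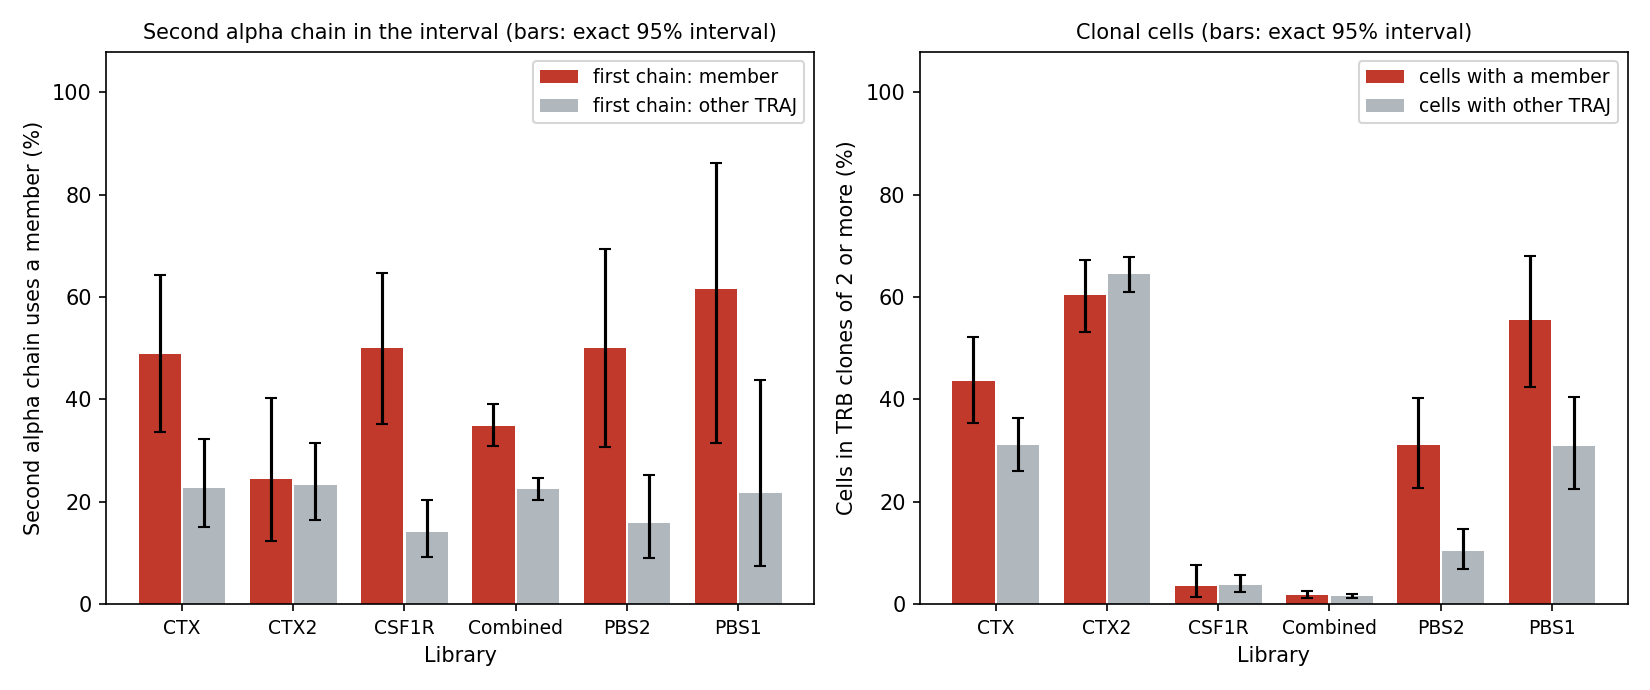
Left, percent of paired alpha chains whose partner used a member, for member chains (red) and all others (grey), by library. Each chain of a pair counts in turn. Right, percent of cells with a TRB that were in TRB clones of 2 or more, for cells with a member alpha chain (red) and other cells (grey). Error bars are exact 95% intervals that cover counting error only, and neither the chains of a pair nor the cells of a clone are independent. On the left red is higher in 6 of 6 libraries (24.4% and 23.3% in CTX2), on the right in 4 of 6.

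The beta chain partners of members were set beside those of other alpha chains. The TRBV13 family, the most used beta family here, was the partner of 33.7% ± 3.33 of member rearrangements and 33.3% ± 6.26 of others (SD, n = 6 each). The difference was 0.352 points (SD 7.56, exact sign-flip permutation p = 0.844, adjusted 0.844, n = 6), and the libraries ranged from -9.08 in PBS2 to 10.8 in PBS1, so its direction was not settled. By member the pooled TRBV13 share ran from 27.4% for TRAJ40 (exact 95% interval 22.8 to 32.4) to 38.6% for TRAJ38 (28.1 to 49.9). TRBJ2 genes were used by 62.5% ± 6.81 of member partners and 63.9% ± 2.24 of others, and the length of the beta CDR3 averaged 41.1 nt ± 0.258 and 41.2 nt ± 0.225 (SD, n = 6 each).

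Cells with a member alpha chain were spread over unexpanded and expanded clones. Cells of 1 library were put in a clone when they shared the TRBV gene and the nucleotides of the TRB CDR3, so the alpha chain took no part in it. Of member cells with a TRB, 43.7% were in clones of 2 or more in CTX, 60.4% in CTX2, 3.57% in CSF1R, 1.71% in Combined, 31.0% in PBS2 and 55.6% in PBS1. Of other cells, 31.1% were so in CTX, 64.5% in CTX2, 3.75% in CSF1R, 1.54% in Combined, 10.3% in PBS2 and 30.9% in PBS1. The difference averaged 8.98 points (SD 12.1, exact sign-flip permutation p = 0.219, adjusted 0.306, n = 6), higher for members in 4 of 6 libraries. Without PBS1 it was 5.85 points, and with each clone and its alpha chain counted once 3.15 points.

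Single members differed in how many of their cells lay in clones. For TRAJ45 the share was 28.6% of 21 cells in CTX, 80.6% of 67 in CTX2, 3.57% of 28 in CSF1R, 0.420% of 238 in Combined, 42.1% of 19 in PBS2 and 79.3% of 29 in PBS1. For TRAJ40 it was 66.7% of 36 cells in CTX, 80.6% of 31 in CTX2 and 11.8% of 17 in PBS2. In Combined it was 1.45% of 276, in CSF1R 0 of 27 and in PBS1 0 of 3. For TRAJ39 it was 78.8% of 33 in PBS2, 60.7% of 28 in CTX2 and 55.6% of 36 in CTX. In Combined it was 2.87% of 209, in CSF1R 0 of 18 and in PBS1 0 of 2. A single clone held 18 of the 24 clonal TRAJ40 cells in CTX and 20 of 25 in CTX2. Another held 22 of the 26 clonal TRAJ39 cells in PBS2. For TRAJ43 it was 33.3% of 6 cells in PBS1, 8.33% of 24 in CSF1R and 7.69% of 13 in CTX2. In Combined it was 2.91% of 172, in PBS2 0 of 11 and in CTX 0 of 9. The remaining members also had high values in single libraries, except TRAJ35. Their highest were 71.4% of 7 cells for TRAJ38 in CTX, 63.0% of 27 for TRAJ34 in CTX2 and 55.6% of 18 for TRAJ37 in PBS1. TRAJ42 reached 34.8% of 23 in CTX and TRAJ35 11.1% of 9 in CSF1R. In Combined these members ran from 0% for TRAJ35 to 4.57% for TRAJ34.

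The 69 clones of 3 or more cells included 19 whose main alpha chain was a member (27.5%), holding 223 of 896 cells (24.9%). CTX2 supplied 600 of these cells, and its member clones held 101 of them (16.8%). Member clones held 44 of 139 cells in CTX (31.7%), 0 of 16 in CSF1R and 9 of 22 in Combined (40.9%). They held 36 of 57 in PBS2 (63.2%) and 33 of 62 in PBS1 (53.2%). Without CTX2, member clones held 122 of 296 cells (41.2%) and made up 13 of 42 clones (31.0%). With any 1 other library left out they held 22.3% to 25.3% of cells. The next counts are cells with the named alpha chain, out of all cells of the beta clone. In CTX the leading member clones paired TRAV13D-2 and TRAJ40 with TRBV19 (18 of 18) and TRAV3-3 and TRAJ39 with TRBV1 (11 of 11). In CTX2 they paired TRAV12-1 and TRAJ45 with TRBV14 (43 of 47) and TRAV16N and TRAJ40 with TRBV13-2 (20 of 21). In Combined they paired TRAV9N-2 and TRAJ43 with TRBV12-1 (4 of 5) and TRAV10N and TRAJ40 with TRBV19 (4 of 4). CSF1R had 0 member clones of 3 or more cells. In PBS2 they paired TRAV12D-2 and TRAJ39 with TRBV13-2 (22 of 27) and TRAV12-1 and TRAJ45 with TRBV14 (4 of 6). In PBS1 they paired TRAV12-1 and TRAJ45 with TRBV14 (15 of 17) and TRAV14N-1 and TRAJ37 with TRBV13-3 (9 of 9).

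The chain of the largest of these, TRAV12-1 joined to TRAJ45, recurred with the same CDR3 amino acids in 4 libraries. It was found in 77 cells, 48 in CTX2, 1 in Combined, 4 in PBS2 and 24 in PBS1, and was not seen in CTX and CSF1R. It was encoded by 3 nucleotide sequences, 1 of them shared by CTX2 and PBS1 and another by Combined and PBS2. They are shown because different bases encoded 1 amino acid sequence, with the bases that match the J end in capitals. The sequence found in PBS1 alone was in 1 cell. It differs by 1 base from that of 23 other PBS1 cells. Whether such differences come from separate junctions or from sequencing error was not tested.
TRAV12-1 and TRAJ45, CTX2 and PBS1: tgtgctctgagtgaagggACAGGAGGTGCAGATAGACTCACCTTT
TRAV12-1 and TRAJ45, Combined and PBS2: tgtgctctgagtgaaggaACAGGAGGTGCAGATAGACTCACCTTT
TRAV12-1 and TRAJ45, PBS1: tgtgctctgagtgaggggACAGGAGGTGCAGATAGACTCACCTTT

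Almost all of these cells used TRBV14 as their beta partner. TRBV14 was found in 75 of 77 cells and in all 4 libraries, and 43 of these cells were in 1 CTX2 clone. Counted by clones, TRBV14 was used by 7 of 9, while it made up 4.0% ± 1.06 of all beta clones (SD, n = 6). The 75 cells belonged to these 7 beta clones, with 7 different CDR3s in 4 libraries. One of the 7, a single cell of PBS1, differed by 1 base from the PBS1 clone of 15 such cells. Of the remaining cells, 1 in CTX2 carried the beta chain of a TRBV4 clone of 117 cells and 1 in PBS1 a TRBV13-1 chain. Leakage of RNA from the large clones into other droplets was not tested. The TRBV14 clones of CTX2 and PBS1 that held most cells had these beta CDR3 sequences.
TRBV14 and TRBJ2-3, CTX2, 43 cells: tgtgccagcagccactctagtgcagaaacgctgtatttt
TRBV14 and TRBJ2-4, PBS1, 15 cells: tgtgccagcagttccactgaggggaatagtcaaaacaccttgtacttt

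TRAV12D-2 joined to TRAJ39 also recurred in 4 libraries, in 10 cells of CTX, 5 of CTX2, 1 of Combined and 25 of PBS2, each time with 1 and the same nucleotide sequence. Of its 39 cells with a TRB, 36 used TRBV13-2, and 22 of these were in 1 PBS2 clone. Counted by clones, TRBV13-2 was used by 7 of 9, while it made up 14.8% ± 1.73 of all beta clones (SD, n = 6). One of the 7 was a CTX2 clone of 86 cells, of which 1 cell carried this alpha chain. RNA leakage was not tested here either. In CTX and PBS2 the beta chains matched in amino acids as well, with 6 and 22 cells, while their nucleotides differed. This pair of chains is shown with both beta sequences.
TRAV12D-2 and TRAJ39, all 4 libraries: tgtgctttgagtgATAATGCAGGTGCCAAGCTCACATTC
TRBV13-2 and TRBJ2-5, CTX, 6 cells: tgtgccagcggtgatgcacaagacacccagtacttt
TRBV13-2 and TRBJ2-5, PBS2, 22 cells: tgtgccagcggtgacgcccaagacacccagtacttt

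In CTX this beta clone held 8 cells, and all 8 carried a second member chain, TRAV13D-2 joined to TRAJ42. The 6 cells with the TRAJ39 chain were among them, so both alpha chains of these cells used members. In PBS2 the clone held 27 cells, 22 of them with the TRAJ39 chain.

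A second alpha-beta pair had matching amino acids in 2 libraries. TRAV14N-1 joined to TRAJ37, with TRBV13-3 and TRBJ2-7, was found in 1 cell of Combined and 10 of PBS1, of which 9 shared 1 beta nucleotide sequence. Both chains differed in nucleotides between the libraries. In PBS1, 7 of the 9 cells also carried TRAV6-6 joined to TRAJ33.
TRAV14N-1 and TRAJ37, Combined: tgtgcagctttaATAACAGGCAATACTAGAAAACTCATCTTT
TRAV14N-1 and TRAJ37, PBS1: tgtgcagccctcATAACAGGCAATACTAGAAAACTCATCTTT
TRBV13-3 and TRBJ2-7, Combined: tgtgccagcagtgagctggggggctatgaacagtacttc
TRBV13-3 and TRBJ2-7, PBS1, 9 cells: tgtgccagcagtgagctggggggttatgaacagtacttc

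The other alpha chains found in 3 libraries were small. TRAV5N-4 joined to TRAJ45 was in 6 cells of CTX, Combined and PBS2, with 2 nucleotide sequences, and TRAV8D-1 joined to TRAJ42 in 4 cells of CSF1R, Combined and PBS2. Chains found in more than 1 library were rare among members and among other alpha chains. By V gene, J gene and CDR3 amino acids, 44 of 2183 member chains (2.02%) were found in 2 or more libraries, against 169 of 6780 others (2.49%), a difference that was not tested. Of alpha-beta pairs, 2 of 2185 with a member and 3 of 6857 others were in 2 or more libraries.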

How the data were processed

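The authors deposited a table of assembled receptor contigs with read and UMI counts that are whole numbers and not normalized. Per the submitters' processing notes, Cell Ranger 3.0.2 and the builds mm10 and GRCm38 were used. Contig, cell and gene calls were taken as deposited. Of 11 library names, 6 matched a label, and the other 5 were not used. The expression files were not used.

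Productive TRA contigs of called cells were used from 1 UMI upward, and a cell's beta partner was its TRB contig with the most UMIs. An exact permutation test, two-sided, was used for treated against untreated means. Differences within libraries were tested by flipping their signs over the 6 libraries, exact and two-sided, and adjusted by Benjamini-Hochberg over 7 comparisons or over 41 TRAJ genes. Shares of single libraries have exact Clopper-Pearson 95% intervals, and a count of 0 is given a limit of 3 counts. Both cover counting error only. The minimum of 50 sequences for reading a J end was set on simulated data, after smaller minima overshot the end by 1 base, so the J ends of rarer genes depend on it. A CDR3 was in another frame when its last 6 bases differed from the usual ones at more than 2 places.

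Besides all members, the text names V genes, neighbours, clones and recurrent chains by rules on rank, share or number of libraries. The members and lists were chosen with earlier results of these data known. Alternatives were high-confidence contigs, at least 2 UMIs, no possible doublets (cells with 2 or more TRB or 3 or more TRA), 1 TRA per cell, cells in place of rearrangements, and leaving out libraries. Others were added after the data were seen. The tools were pandas 2.3.3, numpy 2.4.6, matplotlib 3.10.9 and scipy 1.17.1 under Python 3.11.15, and the scripts were tested on simulated data.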

Additional observations from a re-analysis of the deposited data

Results flagged for a closer look

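Member alpha chains were also present outside called cells. Of 1011 productive TRA contigs in barcodes that were not called cells, 235 used one of the 9 genes (23.2%). They numbered 26 in CTX, 48 in CTX2, 26 in CSF1R, 81 in Combined, 36 in PBS2 and 18 in PBS1. These contigs entered no comparison. They are receptor RNA in barcodes that were not called cells, and their source was not tested. Whether such RNA added second chains to called cells was not tested either.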

How the results depend on the processing

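Within-library comparisons kept the direction given in the report under the alternatives tried, except these. The TRBV13 difference was -0.429 with at least 2 UMIs, -0.769 with cells counted, -2.63 in the JR libraries (CTX2 and Combined), and -1.74 to 2.24 with 1 library left out, negative without CSF1R (-1.05) or PBS1. The CDR3 length difference was 0.586 nt with cells counted and 0.105 nt in the JR libraries. The clone difference was -1.94 points in the JR libraries and 14.4 in the other 4. The difference from downstream TRAJ was -2.04 kb by mean TRAV distance from TRAJ45, with the sign turned so that negative means farther away, and that from upstream TRAJ was -98.3 kb. TRAJ genes whose CDR3 length passed numbered 0, in place of 27, with at least 2 UMIs, without possible doublets, and with any 1 library left out (0 to 0), the last because 5 libraries cannot give a p under 0.0625. The causes of the other reversals were not tested.

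With 1 library left out the differences ranged from -5.37 to -3.73 against upstream TRAJ, 21.9 to 29.7 for the second chain, 5.85 to 11.6 for clones, 5.89 to 10 for productive against nonproductive, and -2.23 to -0.539 for treated against untreated. Over all alternatives the adjusted exact permutation p of the 7 comparisons was at least 0.0729. With PBS2 counted as treated the treated difference was -1.16 points, and as untreated -1.58. No paired analysis was possible because the labels give no replicate numbers shared between groups. Depth limits the single genes: PBS1 held 145 rearrangements, Combined most of those behind pooled shares, and CTX2 most cells in clones of 3 or more.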
